A study of Mus musculus with 21 samples.

Results

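The step from day 5 (D5) to day 6 (D6) of motor neuron differentiation was followed in untreated cultures of C57BL/6 mouse embryonic stem cells (mESCs). It was chosen by label: the 3 D6 libraries without GSKJ4 were compared with the 3 D5 libraries without GSKJ4, which makes 6 of the 21 polyA RNA-seq libraries of the series. The whole series held 7 groups of 3, which were D4, D4 plus 8 hours (D4H8), D5 and D6, and the last 3 of these stages again with GSKJ4, an inhibitor of the H3K27 demethylases Kdm6a and Kdm6b. All cultures were wild type (WT) and were labelled as differentiated motor neurons. Before differentiation the mESCs grew on a layer of mouse embryonic fibroblasts that had been arrested with Mitomycin C. Embryoid bodies formed over the first 2 days and were then kept in 1 µM retinoic acid (RA) and 0.5 µM of the Smoothened agonist SAG. The γ-secretase inhibitor DAPT, which blocks Notch signalling, was present at 5 µM from D4, and at D5 the medium was changed to one described without RA and SAG, again with DAPT. The D5 and D6 cultures therefore differed both by 1 day and by the medium of that day, and these cannot be told apart. Each library was a whole culture of neurospheres and not a sorted population, so that fewer cells of a type and less RNA per cell cannot be told apart in any result below.

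Motor neurons arise from ventral progenitors that express *Olig2*. Proneural factors such as *Neurog2* drive these cells out of the cell cycle, and the LIM homeodomain factors *Isl1* and *Lhx3* then act together with *Mnx1* to switch on motor neuron genes. A newborn motor neuron next extends an axon, settles its column and pool identity with the help of Hox factors, and builds up the machinery to make, store and release acetylcholine at the neuromuscular junction. The question addressed by the comparison was which genes changed during the early maturation of motor neurons.

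The 6 libraries held between 15431424 and 16647584 counted reads. Some libraries stood apart and are named here before the results. A library's place along the step was scored over the genes that were called without it, on a scale where the mean of the other D5 libraries is 0 and the mean of the other D6 libraries is 1. D6 replicates 1, 2 and 3 lay at 1.16, 0.885 and 0.791, and D5 replicates 1, 2 and 3 lay at 0.126, 0.0401 and 0.0454. D6 replicate 1 was the highest of the D6 libraries for 74.3% of 2507 genes that rose without it, and the lowest for 72.7% of 1620 genes that fell without it. D5 replicate 1 leaned the same way among the D5 libraries. It was the highest for 59.4% of 3259 genes that rose without it, and the lowest for 57.1% of 2512 that fell. Summed pluripotency genes were also lowest in replicate 1 of both days, at 128, 242 and 218 FPKM in D5 replicates 1 to 3 and 61.5, 185 and 183 FPKM in D6 replicates 1 to 3. D5 replicate 1 had a summed level of mitochondrially encoded transcripts of 2637 FPKM, against 17009 and 13325 FPKM in the other D5 libraries and between 12361 and 13830 FPKM at D6. No pair of libraries within a day was as similar as sampling noise alone would make it.

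The change was broad. Of 17519 genes tested with edgeR's quasi-likelihood test, 3369 were higher at D6 (19.2%) and 2647 were lower (15.1%) at a Benjamini-Hochberg adjusted p under 0.05. Without D6 replicate 1 these counts were 2526 and 1625 (14% and 9.03% of 17988 genes), so the count of lower genes depended on that library by more than 1.5 times. Larger changes were more often upward. At least 2-fold changes were found for 1719 higher and 1081 lower genes, at least 4-fold changes for 591 and 228, and at least 8-fold changes for 207 and 74. The CPM values of the D5 and D6 libraries did not overlap for 8224 genes (46.9%). The median log2 fold change of all tested genes was -0.02, and this is the value to hold each list below against. Counts of risers and fallers in each list are likewise to be set beside the 19.2% and 15.1% of all genes.

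The labelled cell type was checked with 9 motor neuron markers, all of which were detected. Of these, 7 rose, 1 fell and *Mnx1* passed no test (median log2 fold change 1.24). Their summed level was 280.3, 279 and 332 FPKM in D5 replicates 1 to 3 and 714, 696 and 645 FPKM in D6 replicates 1 to 3. Every D6 library thus lay above every D5 library. *Slc5a7* (chr17:54273590-54299034 on GRCm38), the high-affinity choline transporter, stood at 0.39, 0.8 and 1.43 FPKM at D5 and 14.7, 21.1 and 16.7 FPKM at D6 in replicates 1 to 3. Its groups did not overlap, and it had the largest change among the markers (log2 fold change 4.44, SE 0.32, adjusted p 8.4e-07). *Chat*, which makes acetylcholine, rose from 12.7, 11.1 and 13.6 FPKM to 31.3, 26.9 and 23.2 FPKM (log2 fold change 1.24, SE 0.31, adjusted p 0.0075). *Slc18a3*, the vesicular acetylcholine transporter, rose from 64.6, 57.5 and 74.4 FPKM to 219, 182 and 165 FPKM (log2 fold change 1.65, SE 0.26, adjusted p 3.4e-04). In both, the lowest D6 library was well above the highest D5 library. The peripheral intermediate filament gene *Prph* rose from 37.2, 27.6 and 39.9 FPKM to 201, 200.2 and 201 FPKM, with nearly the same value in all D6 libraries (log2 fold change 2.64, SE 0.24, adjusted p 4.8e-06).

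The LIM homeodomain factors went different ways. *Isl2* rose from 12.4, 18.9 and 25.8 FPKM to 36.9, 43.6 and 48.7 FPKM (log2 fold change 1.29, SE 0.23, adjusted p 7.9e-04) and *Lhx4* rose from 13.6, 17.1 and 17.2 FPKM to 41.9, 26.5 and 32.99 FPKM (log2 fold change 1.20, SE 0.24, adjusted p 0.0016). *Lhx3* (chr2:26200212-26208289), the partner of *Isl1* in newborn motor neurons, fell from 28.4, 18.9 and 22.7 FPKM to 3.1, 3.82 and 2.79 FPKM (log2 fold change -2.74, SE 0.36, adjusted p 7.1e-05). All D6 libraries were far below the lowest D5 value. *Isl1* itself stood at 73.4, 89.8 and 91.6 FPKM at D5 and 126, 134 and 115 FPKM at D6 (log2 fold change 0.68, SE 0.22, adjusted p 0.031). Its groups did not overlap, but leaving out any library other than D6 replicate 3 ended the call, with an adjusted p between 0.066 and 0.089. *Mnx1* stood at 37.6, 36.8 and 45.1 FPKM and 38.7, 58.5 and 39.00 FPKM, and its groups overlapped (log2 fold change 0.30, SE 0.27, adjusted p 0.43).

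**Figure D1:**
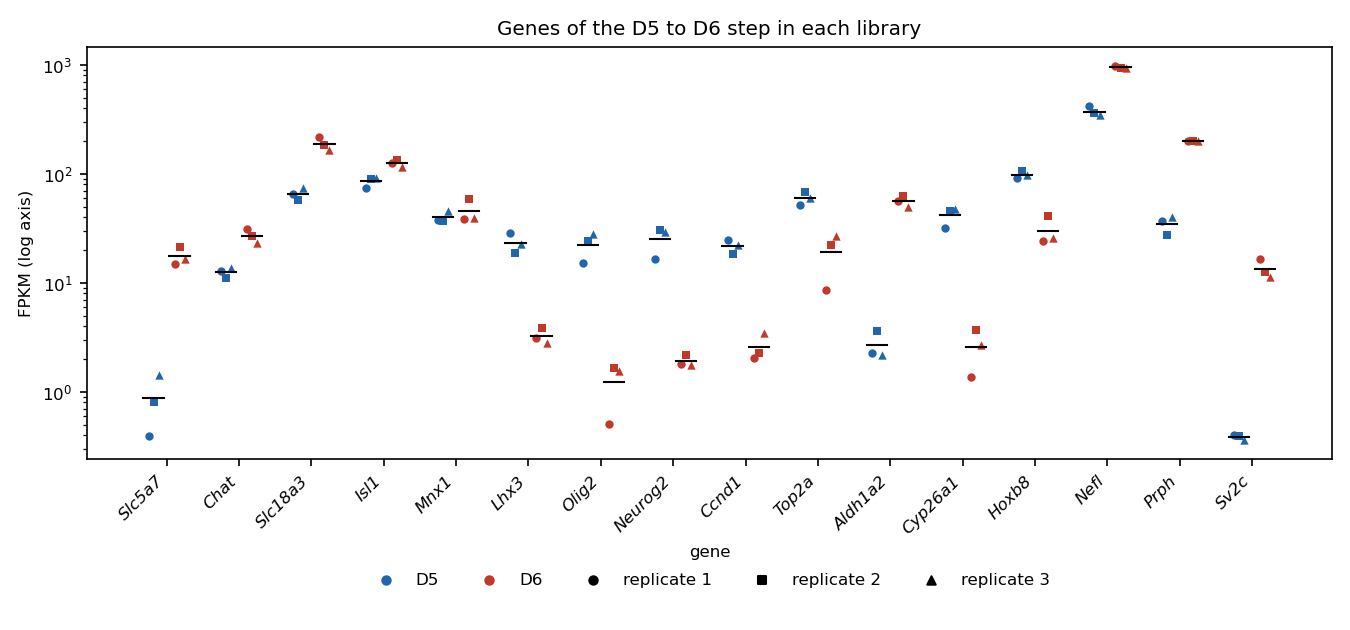
FPKM (log axis) of 16 genes in each D5 (blue) and D6 (red) library, with circles, squares and triangles for replicates 1, 2 and 3 and a black line for the mean of 3. Slc5a7 goes from 0.39 to 1.43 FPKM at D5 to 14.7 to 21.1 FPKM at D6, while the D5 and D6 values of Mnx1 overlap.

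Progenitor and proneural factors mostly went down. Of 32 tested, 15 fell and 4 rose (median -0.64), against 15.1% and 19.2% of all genes. *Olig2*, which marks motor neuron progenitors, fell from 15.2, 24.2 and 27.8 FPKM to 0.51, 1.66 and 1.54 FPKM (log2 fold change -4.07, SE 0.33, adjusted p 1.9e-06), and D6 replicate 1 was the lowest. The proneural gene *Neurog2* fell from 16.5, 30.8 and 29.1 FPKM to 1.79, 2.17 and 1.78 FPKM (log2 fold change -3.61, SE 0.24, adjusted p 4.5e-07). Neither gene had a D6 value that reached its lowest D5 value. Among Notch pathway genes the ligands *Dll3* and *Dll4* fell (-2.25 and -3.63 on the log2 scale) as did the receptor *Notch1* (-2.23), while *Dll1* (-0.24, adjusted p 0.37) and *Notch2* (-0.23, adjusted p 0.36) passed no test.

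The risers of this list were *Nkx6-2*, *Neurog3*, *Irx5* and *Irx3*, of which *Irx3* was lost without D6 replicate 2 (adjusted p 0.075). *Nkx6-2*, a ventral homeodomain factor, rose from 5.57, 4.16 and 6.12 FPKM to 51.3, 19.5 and 30.6 FPKM (log2 fold change 2.81, SE 0.32, adjusted p 2.6e-05). *Irx5* rose from 8.04, 6.57 and 7.38 FPKM to 26.7, 25.5 and 18.3 FPKM (log2 fold change 1.80, SE 0.21, adjusted p 2.8e-05). Their groups did not overlap. The related *Nkx6-1* stood at 152, 75.9 and 97.1 FPKM and 190.4, 105 and 135 FPKM, with overlap (log2 fold change 0.52, SE 0.29, adjusted p 0.18). The neural stem cell factor *Sox2* was at 18.2, 37.5 and 35.9 FPKM and 8.46, 21.04 and 24.3 FPKM (adjusted p 0.13, and 0.018 with a replicate block).

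Transcription factors of newborn neurons split. Of 35 tested, 16 rose and 8 fell (median 0.62). The fallers were *Neurod4*, *Neurod1*, *Nhlh1*, *Insm1*, *St18*, *Ebf2*, *Prox1* and *Ebf3*, the last of which was lost with any library but D5 replicate 1 left out. The bHLH factor *Neurod4* fell from 33.01, 34.9 and 34.5 FPKM to 1.19, 1.73 and 2.12 FPKM (log2 fold change -4.24, SE 0.30, adjusted p 7.1e-07), *Neurod1* from 18.3, 26.8 and 27.3 FPKM to 5.01, 6.1 and 5.49 FPKM (log2 fold change -2.01, SE 0.25, adjusted p 4.6e-05), and *Nhlh1* from 13.3, 18.4 and 23.5 FPKM to 3.58, 5.0 and 4.19 FPKM (log2 fold change -1.99, SE 0.25, adjusted p 4.9e-05). Each of these was lower in all D6 libraries than in any D5 library. The log2 fold changes of *St18*, *Ebf2* and *Insm1* were -2.0, -2.12 and -1.55. The homeodomain factor *Onecut3* rose from 3.57, 5.27 and 4.21 FPKM to 29.3, 14.5 and 17.6 FPKM (log2 fold change 2.36, SE 0.27, adjusted p 2.2e-05). *Myt1l*, a repressor of non-neuronal genes, rose from 1.51, 1.23 and 1.12 FPKM to 6.1, 4.95 and 3.96 FPKM (log2 fold change 2.08, SE 0.25, adjusted p 4.0e-05). The zinc finger gene *Bcl11a* rose from 0.1, 0.31 and 0.26 FPKM to 3.11, 1.86 and 1.87 FPKM (log2 fold change 3.46, SE 0.45, adjusted p 6.8e-05), with the groups far apart. *Sox4*, the most abundant of the list at D5, stood at 168, 154 and 165 FPKM and 139, 147 and 147 FPKM (adjusted p 0.76).

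Genes that mark motor columns and pools lay near the background as a list. Of 26 tested, 8 rose (30.8%) and 4 fell (15.4%), beside 19.2% and 15.1% of all genes (median 0.06). The risers numbered 6 to 9 with 1 library left out. The fallers, among them *Tshz1* and *Pou3f1*, numbered 2 without D5 replicate 2, D5 replicate 3, D6 replicate 1 or D6 replicate 2. *Runx1*, a factor of cervical motor neurons, rose from 2.25, 1.63 and 1.54 FPKM to 17.7, 7.07 and 10.8 FPKM (log2 fold change 2.84, SE 0.30, adjusted p 1.4e-05) and *Tbx20*, which is expressed in visceral motor neurons, from 3.32, 2.35 and 2.95 FPKM to 34.6, 13.8 and 23.1 FPKM (log2 fold change 3.18, SE 0.34, adjusted p 1.5e-05). D6 replicate 1 was the highest for both. The POU factor *Pou3f1* fell from 17.4, 11.97 and 13.9 FPKM to 3.76, 4.6 and 2.24 FPKM (log2 fold change -1.92, SE 0.25, adjusted p 6.3e-05). *Foxp1*, which marks limb-innervating columns, was at 5.1, 7.06 and 6.38 FPKM and 5.49, 5.1 and 4.23 FPKM (adjusted p 0.39).

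Hox genes, which set position along the body axis, fell or gave no call with 2 exceptions. Of 29 tested, 12 fell and 2 rose (median -0.74). By cluster, 9 of 10 Hoxb genes, 2 of 5 Hoxc genes, 1 of 9 Hoxa genes and 0 of 5 Hoxd genes fell (0 also at an unadjusted p under 0.05 and by DESeq2). The Hoxc genes were *Hoxc8* and *Hoxc9*. The fall of *Hoxb13*, at 0.12, 0.41 and 0.52 FPKM at D5 and 0, 0.14 and 0.06 FPKM at D6, was lost without D5 replicate 2, D5 replicate 3, D6 replicate 1 or D6 replicate 3. *Hoxb1* (chr11:96365752-96368256), the most anterior gene of its cluster, fell from 8.01, 9.57 and 11.1 FPKM to 0.29, 0.68 and 0.71 FPKM (log2 fold change -3.98, SE 0.24, adjusted p 2.7e-07). *Hoxb8* fell from 90.6, 106 and 96.4 FPKM to 24.04, 40.7 and 25.7 FPKM (log2 fold change -1.58, SE 0.18, adjusted p 2.6e-05). The more caudal *Hoxb9* fell from 4.78, 17.01 and 19.8 FPKM to 0.36, 3.42 and 1.24 FPKM (log2 fold change -2.94, SE 0.58, adjusted p 0.0016). For *Hoxb9* replicate 1 was the lowest library on both days, while *Hoxb8* was close to even across D5. *Hoxc8* was counted 131 times over the D5 libraries and 6 times over the D6 libraries, a ratio of 20.2 (95% counting interval 9.04 to 56.1).

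The risers were *Hoxc5*, from 31.9, 34.1 and 33.6 FPKM to 67.5, 51.8 and 41.6 FPKM (log2 fold change 0.81, SE 0.20, adjusted p 0.0063), and *Hoxc4*, from 49.4, 76.4 and 57.9 FPKM to 124, 92.2 and 82.4 FPKM (log2 fold change 0.83, SE 0.24, adjusted p 0.016). The call of *Hoxc4* ended without D5 replicate 1, D5 replicate 3 or D6 replicate 1 (adjusted p 0.059 to 0.085), and that of *Hoxc5* did not end without D6 replicate 1 (adjusted p 0.034). *Hoxa5*, the Hox gene with the highest level at both days, stood at 175, 143 and 147 FPKM and 162, 152 and 110.4 FPKM (log2 fold change -0.02, SE 0.22, adjusted p 0.97). *Hoxb5* stood at 166, 118 and 109 FPKM and 96.6, 70.9 and 60.3 FPKM without overlap (adjusted p 0.058, and 0.0062 with a replicate block). The antisense transcript *Hoxb5os* overlaps it and fell by more, from 61.4, 66.3 and 61.6 FPKM to 3.78, 7.13 and 3.39 FPKM (log2 fold change -3.61, SE 0.26, adjusted p 7.4e-07), and since counting by strand is not stated, reads of this pair cannot be told apart.

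**Figure D2:**
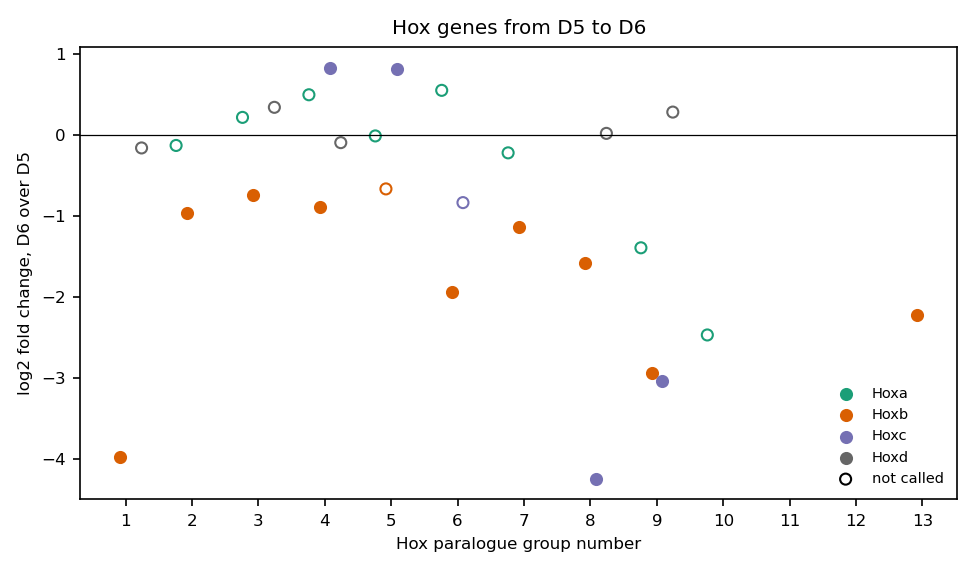
Log2 fold change of D6 over D5 for tested Hox genes of the 4 clusters (1 is not shown) by paralogue group number, coloured by cluster, with filled points for genes at an adjusted p under 0.05 and open points for the others. Of 10 Hoxb genes 9 are filled and below 0, while no Hoxd gene is filled.

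Genes of retinoic acid handling had some of the largest changes in both directions, and since RA and SAG were left out of the medium from D5, the day and their withdrawal cannot be told apart for these genes and for those of the sonic hedgehog pathway. Of 17 tested, 2 rose and 6 fell (median -0.31). *Aldh1a2* (chr9:71215789-71296243), which makes retinoic acid and is used by limb-level motor neurons, rose from 2.26, 3.63 and 2.16 FPKM to 56.2, 62.6 and 49.6 FPKM (log2 fold change 4.50, SE 0.27, adjusted p 2.7e-07). The enzymes that break retinoic acid down went the other way. *Cyp26a1* fell from 31.9, 45.4 and 47.8 FPKM to 1.36, 3.71 and 2.7 FPKM (log2 fold change -3.90, SE 0.27, adjusted p 5.9e-07) and *Cyp26b1* from 236, 144 and 137 FPKM to 13.4, 13.8 and 3.81 FPKM (log2 fold change -3.94, SE 0.43, adjusted p 1.8e-05). *Dhrs3*, a retinaldehyde reductase, fell from 14.5, 21.3 and 21.4 FPKM to 2.07, 3.63 and 2.94 FPKM (log2 fold change -2.62, SE 0.20, adjusted p 1.1e-06). Groups of all these genes were far apart. The retinoic acid binding protein *Crabp1* fell from 1402, 1064 and 969.9 FPKM to 569, 458 and 430.3 FPKM (log2 fold change -1.12, SE 0.28, adjusted p 0.0068), and the receptor *Rxrg* rose (1.69).

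In the sonic hedgehog pathway, 8 of 13 genes fell and 1 rose (median -0.64). The ligand *Shh*, which motor neurons also make, was the riser, from 4.69, 3.1 and 2.96 FPKM to 14.5, 20.5 and 23.1 FPKM (log2 fold change 2.53, SE 0.29, adjusted p 2.8e-05). The receptor *Ptch1* fell from 19.1, 20.4 and 21.8 FPKM to 11.03, 12.8 and 13.7 FPKM (log2 fold change -0.59, SE 0.14, adjusted p 0.0054), and the signal transducer *Smo* from 17.1, 16.6 and 18.8 FPKM to 5.94, 8.26 and 9.67 FPKM (log2 fold change -1.03, SE 0.14, adjusted p 1.0e-04). The transcription factors *Gli2* and *Gli3* fell as well (-1.36 and -1.21). The fall of *Gli1* (2.58, 5.7 and 4.88 FPKM to 1.1, 3.04 and 2.48 FPKM, adjusted p 0.029) was lost without D5 replicate 2, D5 replicate 3 or D6 replicate 1 (adjusted p 0.071 to 0.12). *Foxa2*, a floor plate factor, was at 9.43, 12.7 and 15.4 FPKM and 11.97, 16.3 and 17.4 FPKM (adjusted p 0.15).

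Cell cycle genes fell almost without exception. Of 46 mitosis genes 45 fell (median -1.41), and of 44 DNA replication genes 40 fell (median -0.90), with 0 risers in either list by edgeR, 0 at an unadjusted p under 0.05 and 0 by DESeq2. Without D6 replicate 1, 44 and 30 fell, and 29 DNA replication genes fell without D5 replicate 2 or D5 replicate 3. The summed mitosis genes were at 668, 986 and 961 FPKM in D5 replicates 1 to 3 and 173, 366 and 432 FPKM in D6 replicates 1 to 3. Replicate 1 was the lowest library on each day, and the D6 spread was over 2-fold. *Top2a*, a topoisomerase of dividing cells, fell from 51.8, 67.6 and 60.3 FPKM to 8.64, 22.1 and 26.7 FPKM (log2 fold change -1.55, SE 0.27, adjusted p 7.7e-04). The mitotic kinase gene *Cdk1* fell from 10.7, 19.4 and 17.9 FPKM to 2.74, 7.66 and 8.22 FPKM (log2 fold change -1.26, SE 0.29, adjusted p 0.0044), its cyclin *Ccnb2* from 24.2, 41.7 and 45.1 FPKM to 6.08, 14.4 and 16.8 FPKM (log2 fold change -1.47, SE 0.28, adjusted p 0.0011), and the anaphase activator *Cdc20* from 52.2, 56.6 and 61.9 FPKM to 8.95, 23.6 and 27.3 FPKM (log2 fold change -1.41, SE 0.26, adjusted p 0.001). No D6 library reached the lowest D5 value for any of them. The replicative helicase gene *Mcm6* fell from 34.04, 45.3 and 46.2 FPKM to 12.7, 25.3 and 29.3 FPKM (log2 fold change -0.80, SE 0.22, adjusted p 0.012).

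The promoters of cell cycle genes are known to carry short elements, the cell cycle homology region (CHR) and CCAAT boxes in genes of mitosis and E2F sites in genes of replication. They were searched in the 200 bases before each RefSeq start on both strands. The letters were TTTGAA or TTCGAA for the CHR, CCAAT for the CCAAT box, and TTTGGCGC, TTTCCCGC, TTCGCGC or TTTGCGC for E2F, where TTTGGCGC can overlap the reverse strand match of TTCGCGC. Of 38 matched mitosis promoters 36.8% held a CHR, 73.7% a CCAAT box and 7.89% an E2F match. Of 36 matched DNA replication promoters 19.4% held a CHR, 61.1% a CCAAT box and 33.3% an E2F match. Of the 11283 matched promoters of tested protein-coding genes 10.7% held a CHR, 36.6% a CCAAT box and 6.63% an E2F match. Of all 27025 promoters the shares were 15.4%, 32.7% and 3.75%. E2F matches were in 7.69% of 39 presynaptic and 8.33% of 36 synapse organiser promoters. A match is a description of the letters and not a site of binding. The sequences of 4 genes that fell are shown because they hold several matches each. The first 3 have CHR and CCAAT matches in capitals and the last has E2F matches in capitals, and other matches they may hold are left in lower case (GRCm38.p6, all on the minus strand, 5′ to 3′ toward the start of transcription). Their positions are chr10:69352913-69353112 for *Cdk1*, chr9:70421555-70421754 for *Ccnb2*, chr4:118437344-118437543 for *Cdc20* and chr1:128359706-128359905 for *Mcm6*.
Cdk1: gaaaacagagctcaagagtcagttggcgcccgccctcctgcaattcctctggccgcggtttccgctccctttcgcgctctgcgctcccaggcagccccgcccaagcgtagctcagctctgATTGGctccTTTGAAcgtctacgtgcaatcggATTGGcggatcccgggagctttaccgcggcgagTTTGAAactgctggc
Ccnb2: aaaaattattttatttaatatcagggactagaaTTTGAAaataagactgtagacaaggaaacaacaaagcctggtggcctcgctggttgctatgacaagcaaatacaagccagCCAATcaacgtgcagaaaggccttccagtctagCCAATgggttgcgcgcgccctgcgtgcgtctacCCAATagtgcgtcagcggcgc
Cdc20: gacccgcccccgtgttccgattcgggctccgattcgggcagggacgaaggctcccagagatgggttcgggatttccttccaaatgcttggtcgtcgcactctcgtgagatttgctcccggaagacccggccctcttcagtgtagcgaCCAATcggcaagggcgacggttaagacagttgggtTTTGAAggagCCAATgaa
Mcm6: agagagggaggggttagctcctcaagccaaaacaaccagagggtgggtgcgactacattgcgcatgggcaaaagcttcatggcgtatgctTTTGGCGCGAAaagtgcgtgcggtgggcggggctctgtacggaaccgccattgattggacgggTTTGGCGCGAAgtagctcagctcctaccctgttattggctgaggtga

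D cyclins, which start the cycle, its inhibitors and related genes leaned to falls but did not move as 1 group. Of 20 tested, 8 fell (40%) and 3 rose (15%), beside 15.1% and 19.2% of all genes (median -0.32). With 1 library left out 8 fell and 2 to 4 rose. *Ccnd1* fell from 24.7, 18.2 and 22.1 FPKM to 2.03, 2.29 and 3.48 FPKM (log2 fold change -2.96, SE 0.19, adjusted p 4.4e-07) and *Ccnd2* from 20.8, 33.6 and 29.02 FPKM to 7.4, 9.59 and 11.5 FPKM (log2 fold change -1.44, SE 0.18, adjusted p 6.1e-05). The kinase *Cdk6* fell too (-1.68). The inhibitors *Cdkn1a*, *Cdkn1b* and *Cdkn1c* gave log2 fold changes of 0.17, 0.02 and 0.30 with adjusted p of 0.39, 0.94 and 0.2. *Cdkn1c* was the highest of these at both days, at 199.9, 149 and 170.5 FPKM and 184, 200.2 and 207 FPKM. *Cdk5r1*, an activator of the neuronal kinase Cdk5, rose from 30.6, 23.6 and 26.8 FPKM to 85.2, 78.8 and 70.6 FPKM (log2 fold change 1.65, SE 0.18, adjusted p 1.5e-05). The neurogenesis gene *Gadd45g* fell from 99.3, 60.7 and 71.7 FPKM to 4.49, 11.03 and 11.2 FPKM (log2 fold change -3.02, SE 0.29, adjusted p 6.0e-06).

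Genes for acetylcholine use rose in 9 of 14 cases and fell in 0 by edgeR, at an unadjusted p under 0.05 or by DESeq2 (median 0.99). Besides the synthesis and transport genes above, *Ache*, which breaks acetylcholine down, rose from 3.22, 2.12 and 2.66 FPKM to 31.4, 19.5 and 19.5 FPKM (log2 fold change 3.26, SE 0.24, adjusted p 1.0e-06). *Prima1*, which anchors that enzyme in the membrane, rose from 1.4, 1.39 and 1.16 FPKM to 10.6, 9.32 and 8.3 FPKM (log2 fold change 2.95, SE 0.27, adjusted p 4.6e-06). The muscarinic receptor gene *Chrm2* was counted 7 times over the D5 libraries and 382 times over the D6 libraries, a ratio of 59.0 (95% counting interval 28.3 to 148). The ganglionic nicotinic subunit *Chrna3* stood at 50.97, 47.5 and 63.97 FPKM and 48.2, 33.95 and 44.9 FPKM with overlap (adjusted p 0.49).

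Of 12 tested genes for other transmitters, 4 rose (among them *Slc17a6*, *Slc17a8* and *Slc18a2*) and 2 fell (*Tph2* and *Ddc*), with *Slc18a2* lost without D6 replicate 1. These are 33.3% and 16.7%, beside 19.2% and 15.1% of all genes. The vesicular glutamate transporter *Slc17a6* rose from 0.11, 0.03 and 0.02 FPKM to 1.34, 2.45 and 2.09 FPKM (log2 fold change 5.24, SE 0.52, adjusted p 6.0e-05), and *Slc17a8* from 0.01, 0.11 and 0.03 FPKM to 1.96, 4.5 and 3.18 FPKM (log2 fold change 5.99, SE 0.62, adjusted p 1.3e-05). The GABA synthesis genes *Gad1* and *Gad2* stayed below 0.4 FPKM in all 6 libraries. *Tph2*, of serotonin synthesis, fell from 3.89, 1.5 and 1.52 FPKM to 0.04, 0.2 and 0.13 FPKM (log2 fold change -4.10, SE 0.54, adjusted p 7.6e-05), and *Th*, of catecholamine synthesis, was at 53.2, 39.3 and 44.7 FPKM and 29.6, 34.7 and 29.3 FPKM (adjusted p 0.11). Neuropeptide and granule genes rose in 11 of 14 cases (median 1.40), and in between 8 and 11 cases when 1 library was left out. *Sst* was the highest of them, from 104, 87.9 and 74.95 FPKM to 201, 264 and 187 FPKM (log2 fold change 1.40, SE 0.27, adjusted p 0.0016). *Calca*, which encodes the CGRP peptide of motor neurons, rose from 1.92, 1.82 and 1.69 FPKM to 8.47, 12.2 and 10.2 FPKM (log2 fold change 2.61, SE 0.29, adjusted p 1.8e-05), and the peptide gene *Cartpt* from 4.06, 1.13 and 2.28 FPKM to 15.2, 17.1 and 17.4 FPKM (log2 fold change 2.84, SE 0.47, adjusted p 7.8e-04). Their groups did not overlap. *Cck* was counted 41 times over the D5 libraries and 1 time over the D6 libraries (ratio 37.9, 95% counting interval 6.44 to 1535).

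Neuronal cytoskeleton genes rose in 30 of 34 cases and fell in 0 by edgeR, at an unadjusted p under 0.05 or by DESeq2 (median 1.18). Their summed level was 7189, 6439 and 7154 FPKM in D5 replicates 1 to 3 and 13663, 12652 and 12049 FPKM in D6 replicates 1 to 3. *Nefl*, the light neurofilament chain, rose from 414, 359 and 344 FPKM to 979, 935 and 934 FPKM (log2 fold change 1.46, SE 0.17, adjusted p 2.7e-05) and the medium chain *Nefm* from 296, 265 and 208 FPKM to 873, 564 and 632 FPKM (log2 fold change 1.55, SE 0.31, adjusted p 0.002). The heavy chain *Nefh* was far lower, at 2.13, 1.79 and 1.86 FPKM and 7.48, 6.56 and 5.09 FPKM (log2 fold change 1.85, SE 0.21, adjusted p 2.9e-05). The microtubule protein tau, *Mapt*, rose from 26.1, 23.6 and 20.9 FPKM to 133, 119 and 94.7 FPKM (log2 fold change 2.41, SE 0.15, adjusted p 4.0e-07). The axonal motor *Kif1a* rose from 32.9, 23.4 and 26.1 FPKM to 103, 83.96 and 79.1 FPKM (log2 fold change 1.80, SE 0.19, adjusted p 1.4e-05), and the growth cone gene *Gap43* from 463, 279 and 293 FPKM to 742, 736 and 711 FPKM (log2 fold change 1.19, SE 0.31, adjusted p 0.0087). None of these had overlapping groups. *Tuba1a* had the largest gain in FPKM of the called genes, from 1213, 1787 and 2325 FPKM to 3095, 3047 and 2968 FPKM (log2 fold change 0.90, SE 0.24, adjusted p 0.01). It has near-identical copies, so its reads may be split between them. The neuronal tubulin *Tubb3*, at 1049, 894 and 1082 FPKM and 1389, 1283 and 1245 FPKM, gave no call (adjusted p 0.18).

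Axon guidance genes rose in 33 of 47 cases and fell in 2, *Plxna2* and *Boc* (median 0.84), and 24 rose without D6 replicate 1 or D5 replicate 2. The fallers numbered 1 without D5 replicate 3, D6 replicate 2 or D6 replicate 3, and the call of *Plxna2* was lost there and without D5 replicate 1 (adjusted p 0.066 to 0.20). The Eph receptor *Ephb1* rose from 0.46, 0.88 and 0.49 FPKM to 5.5, 7.13 and 6.26 FPKM (log2 fold change 3.48, SE 0.28, adjusted p 1.6e-06). The semaphorin receptor *Nrp2* rose from 10.6, 12.8 and 13.2 FPKM to 59.8, 41.2 and 54.7 FPKM (log2 fold change 2.21, SE 0.18, adjusted p 2.0e-06), and the ligand *Sema3c* from 3.11, 4.54 and 4.17 FPKM to 18.1, 19.7 and 20.3 FPKM (log2 fold change 2.41, SE 0.27, adjusted p 2.3e-05). Each had D6 values of at least 3 times its highest D5 value. The netrin receptor *Dcc* rose from 2.95, 3.93 and 3.87 FPKM to 12.3, 12.6 and 10.7 FPKM (log2 fold change 1.85, SE 0.23, adjusted p 5.5e-05) and the Slit receptor *Robo1* from 4.32, 4.61 and 4.58 FPKM to 10.3, 9.02 and 7.99 FPKM (log2 fold change 1.13, SE 0.16, adjusted p 1.3e-04). *Epha4*, which steers limb motor axons, stood at 5.46, 7.96 and 8.39 FPKM and 4.47, 5.69 and 5.26 FPKM and gave no call (adjusted p 0.16). The chemokine receptor *Cxcr4* was at 62.1, 96.8 and 83.8 FPKM and 72.9, 40.9 and 59.6 FPKM, with overlap (adjusted p 0.21).

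Adhesion molecules had the largest median of the lists (2.02), with 30 of 44 up and 1 down, or 3 down with a replicate block, although 18 of its 46 members stayed below a mean of 1 FPKM at both days. *Lsamp* (chr16:39984361-42181679), a cell adhesion protein of the IgLON family, rose from 0.1, 0.13 and 0.09 FPKM to 6.2, 3.77 and 3.87 FPKM (log2 fold change 5.54, SE 0.38, adjusted p 5.9e-07). *Cntnap2*, of the neurexin superfamily, rose from 0.28, 0.43 and 0.39 FPKM to 4.58, 3.61 and 3.01 FPKM (log2 fold change 3.47, SE 0.23, adjusted p 4.5e-07), and the protocadherin *Pcdh7* from 0.78, 1.1 and 0.85 FPKM to 9.61, 9.31 and 7.12 FPKM (log2 fold change 3.37, SE 0.20, adjusted p 2.7e-07). These began near or below 1 FPKM. More abundant members rose by less. *L1cam* rose from 29.1, 27.96 and 29.5 FPKM to 112, 79.2 and 79.7 FPKM (log2 fold change 1.77, SE 0.16, adjusted p 4.6e-06) and *Ncam1* from 52.4, 50.7 and 50.6 FPKM to 131, 107 and 98.5 FPKM (log2 fold change 1.25, SE 0.15, adjusted p 3.4e-05). The faller of the main comparison was *Cntn2*, a contactin of early axons, from 191, 169.8 and 197 FPKM to 50.01, 54.3 and 76.4 FPKM (log2 fold change -1.52, SE 0.27, adjusted p 7.7e-04), which at D5 was the member with the highest level.

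Presynaptic genes rose in 43 of 54 cases and fell in 2, *Syt13* and *Sypl* (median 1.38). *Sv2c* (chr13:95954594-96132577), a synaptic vesicle glycoprotein, had the smallest adjusted p among the listed genes. It stood at 0.4, 0.39 and 0.36 FPKM at D5 and 16.5, 12.6 and 11.3 FPKM at D6 (log2 fold change 5.25, SE 0.22, adjusted p 3.2e-08), and its D5 values were almost equal. *Syt1*, the calcium sensor of release, rose from 4.17, 3.48 and 3.31 FPKM to 16.97, 13.4 and 11.6 FPKM (log2 fold change 2.06, SE 0.26, adjusted p 5.0e-05), the SNARE protein *Snap25* from 8.9, 12.8 and 10.8 FPKM to 36.98, 29.1 and 32.2 FPKM (log2 fold change 1.72, SE 0.26, adjusted p 2.7e-04), and the active zone scaffold *Bsn* from 5.85, 4.5 and 4.7 FPKM to 17.9, 13.8 and 11.7 FPKM (log2 fold change 1.65, SE 0.21, adjusted p 6.9e-05). The same direction and no overlap held for the vesicle protein *Syn1* (2.23) and for the complexin *Cplx1* (2.67). *Sncg*, a synuclein, was the most abundant, from 184, 188 and 137 FPKM to 674, 765 and 571 FPKM (log2 fold change 2.09, SE 0.26, adjusted p 4.6e-05). *Syt13*, of the synaptotagmin family, fell from 11.4, 10.9 and 11.5 FPKM to 3.34, 4.34 and 5.02 FPKM (log2 fold change -1.30, SE 0.21, adjusted p 4.4e-04).

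Synapse organisers and scaffolds rose in 42 of 49 cases and fell in 0 by edgeR or DESeq2, with 1 lower at an unadjusted p under 0.05 (median 1.62). Without D6 replicate 1, 34 rose, and 33 rose without D5 replicate 2 or D5 replicate 3. The neurexin gene *Nrxn3* was at 0.58, 0.61 and 0.74 FPKM and 0.81, 0.61 and 0.73 FPKM (adjusted p 0.5). *Nlgn2*, of inhibitory synapses, rose from 35.5, 27.5 and 28.9 FPKM to 77.1, 55.6 and 52.97 FPKM (log2 fold change 1.13, SE 0.17, adjusted p 2.6e-04). The cerebellin gene *Cbln2* rose from 0.96, 1.06 and 0.85 FPKM to 8.21, 8.53 and 9.83 FPKM (log2 fold change 3.31, SE 0.34, adjusted p 1.2e-05), and *Cbln1* was at 30.5, 26.7 and 23.7 FPKM and 13.2, 22.3 and 14.2 FPKM (adjusted p 0.093, and 0.032 with a replicate block). *Agrn*, which motor axons use to cluster acetylcholine receptors on muscle, rose from 81.6, 57.6 and 74.3 FPKM to 123, 89.2 and 99.7 FPKM (adjusted p 0.016). That call ended without D5 replicate 2, D5 replicate 3 or D6 replicate 1 (adjusted p 0.050 to 0.094).

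**Figure D3:**
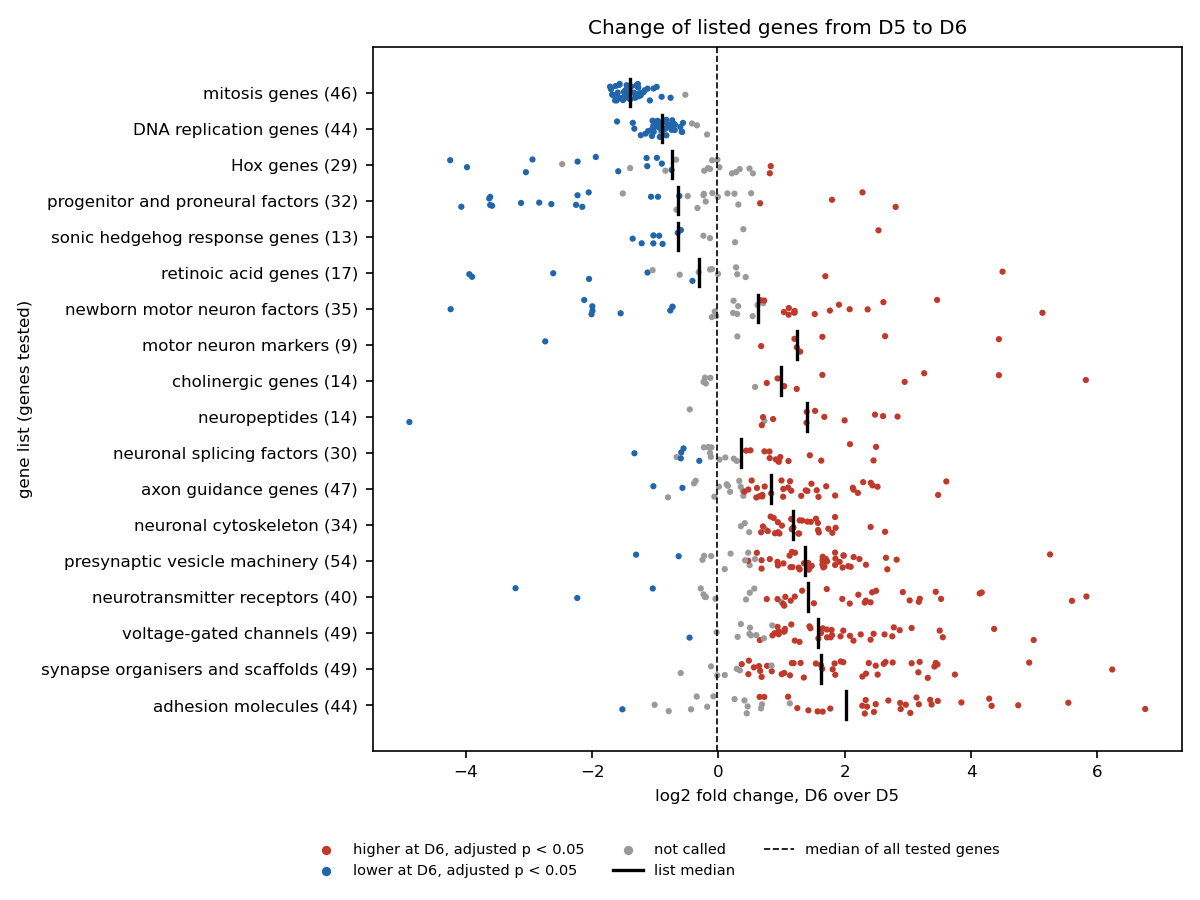
Log2 fold change of D6 over D5 for each tested gene of 18 lists, in red or blue where the adjusted p was under 0.05 and in grey otherwise, with a black bar at the list median and a dashed line at the median of all tested genes (-0.02). Mitosis genes lie left of 0 (median -1.41) and adhesion molecules reach farthest right (median 2.02).

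Voltage-gated channel genes rose in 39 of 49 cases and fell in 1 (median 1.58). Among sodium channels, *Scn9a* rose from 2.09, 1.62 and 2.02 FPKM to 23.4, 17.3 and 19.1 FPKM (log2 fold change 3.50, SE 0.25, adjusted p 8.4e-07), *Scn2a* from 0.67, 0.48 and 0.52 FPKM to 7.44, 5.51 and 5.2 FPKM (log2 fold change 3.55, SE 0.23, adjusted p 4.5e-07), and the auxiliary subunit *Scn3b* from 5.55, 5.49 and 3.72 FPKM to 37.7, 34.6 and 27.3 FPKM (log2 fold change 2.87, SE 0.21, adjusted p 9.4e-07). D6 replicate 1 was the highest for all of them. The potassium channel *Kcnd2*, of the A-type current, rose from 0.18, 0.12 and 0.2 FPKM to 6.37, 3.66 and 4.33 FPKM (log2 fold change 4.99, SE 0.38, adjusted p 1.2e-06). The N-type calcium channel *Cacna1b* rose from 10.6, 7.13 and 7.57 FPKM to 24.6, 20.3 and 18.5 FPKM (log2 fold change 1.44, SE 0.25, adjusted p 5.7e-04). *Cacna2d1* was the faller (-0.46, adjusted p 0.046), and leaving out any of the 6 libraries ended its call (adjusted p 0.052 to 0.17).

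Receptor genes rose in 28 of 40 cases and fell in 3, *Glra1*, *Grm2* and *Htr3a* (median 1.42). The AMPA receptor subunit *Gria4* rose from 1.08, 1.1 and 0.81 FPKM to 11.4, 11.2 and 7.37 FPKM (log2 fold change 3.44, SE 0.24, adjusted p 6.1e-07) and *Gria2* from 6.23, 4.72 and 3.4 FPKM to 21.6, 19.7 and 14.8 FPKM (log2 fold change 2.08, SE 0.30, adjusted p 1.4e-04). The GABA-A subunit *Gabrb2* rose from 0.12, 0.26 and 0.32 FPKM to 4.06, 3.85 and 3.41 FPKM (log2 fold change 4.14, SE 0.35, adjusted p 2.2e-06). The GABA-B receptor *Gabbr1* was the most abundant at D6, from 22.7, 22.1 and 22.4 FPKM to 77.3, 65.8 and 60.1 FPKM (log2 fold change 1.72, SE 0.16, adjusted p 5.9e-06). Glycine receptor subunits differed in direction. *Glra2* rose from 0.31, 0.59 and 0.32 FPKM to 2.49, 2.13 and 1.48 FPKM (log2 fold change 2.43, SE 0.43, adjusted p 7.6e-04) and *Glra1* fell from 2.09, 4.33 and 4.31 FPKM to 0.1, 0.62 and 0.34 FPKM (log2 fold change -3.21, SE 0.48, adjusted p 2.2e-04). The metabotropic glutamate receptor *Grm2* fell from 30.7, 19.2 and 22.8 FPKM to 11.8, 10.2 and 10.7 FPKM (log2 fold change -1.04, SE 0.22, adjusted p 0.0022), and *Grm5* was counted 3 times over the D5 libraries and 150 times over the D6 libraries (ratio 54.0, 95% counting interval 18.1 to 265).

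Of 30 neuronal RNA-binding and splicing factors, 15 rose and 5 fell, *Lin28b*, *Lin28a*, *Igf2bp1*, *Msi2* and *Celf1* (median 0.36). These are 50% and 16.7%, beside 19.2% and 15.1% of all genes, so the share that fell was near that of all genes. The fallers numbered 2 without D6 replicate 1, 1 without D6 replicate 2 and 3 without D5 replicate 2. The call of *Celf1* was lost with any library but D5 replicate 3 left out (adjusted p 0.060 to 0.10), and that of *Msi2* without D5 replicate 2, D6 replicate 1 or D6 replicate 2 (0.050 to 0.074). *Rbfox1* rose from 12.3, 15.8 and 14.01 FPKM to 66.6, 52.7 and 44.3 FPKM (log2 fold change 2.08, SE 0.23, adjusted p 1.9e-05) and *Celf4* from 3.59, 3.96 and 3.74 FPKM to 12.4, 10.4 and 9.29 FPKM (log2 fold change 1.63, SE 0.19, adjusted p 3.3e-05). *Lin28b*, which blocks let-7 maturation, fell from 18.9, 15.3 and 16.02 FPKM to 6.07, 5.72 and 6.73 FPKM (log2 fold change -1.33, SE 0.14, adjusted p 1.1e-05). *Ptbp1* stood at 31.5, 70.1 and 79.3 FPKM and 25.8, 36.05 and 43.9 FPKM (adjusted p 0.06) and *Ptbp2* at 41.1, 36.5 and 34.7 FPKM and 32.9, 32.4 and 30.3 FPKM (adjusted p 0.48). D5 replicate 1 was well below the other D5 libraries for *Ptbp1*, and close to the D6 values.

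The BAF chromatin remodelling complex exchanges subunits as neurons mature. Of 17 genes, 9 rose and 2 fell (median 0.44), which are 52.9% and 11.8%, beside 19.2% and 15.1% of all genes. The neuronal subunit *Actl6b* rose from 3.13, 4.18 and 3.97 FPKM to 18.8, 16.4 and 13.7 FPKM (log2 fold change 2.24, SE 0.24, adjusted p 1.5e-05), and its progenitor counterpart *Actl6a* fell from 29.7, 30.1 and 31.6 FPKM to 14.01, 19.6 and 21.4 FPKM (log2 fold change -0.63, SE 0.13, adjusted p 0.0024). The neuronal *Ss18l1* rose (1.16) and its counterpart *Ss18* fell (-0.53). Of 15 H3K27 demethylase and PRC2 genes, 5 fell (*Ezh2*, *Eed*, *Rbbp4*, *Rbbp7* and *Mtf2*) and 1 rose (*Phf1*), and 8 fell and 2 rose with a replicate block. In the main fit these are 33.3% and 6.67%, beside 15.1% and 19.2% of all genes. Without D5 replicate 2 the riser was lost, and *Mtf2* lost its call with any library but D5 replicate 3 left out (adjusted p 0.071 to 0.12). The H3K27 methyltransferase *Ezh2* fell from 25.8, 28.2 and 23.6 FPKM to 13.8, 17.00 and 16.3 FPKM (log2 fold change -0.61, SE 0.11, adjusted p 9.3e-04). *Kdm6b* was at 31.5, 30.3 and 36.9 FPKM and 46.4, 35.5 and 38.3 FPKM (adjusted p 0.056, and 0.036 with a replicate block) and *Kdm6a* at 7.19, 8.58 and 7.85 FPKM and 7.87, 6.77 and 7.67 FPKM (adjusted p 0.85).

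Of 18 trophic factor and receptor genes, 10 rose and 2 fell (*Gfra3* among them), with 6 risers without D5 replicate 2. The neurotrophin receptor *Ngfr* rose from 71.6, 45.5 and 52.8 FPKM to 168, 161 and 132 FPKM (log2 fold change 1.55, SE 0.23, adjusted p 1.7e-04), *Ntrk3* from 0.11, 0.13 and 0.19 FPKM to 1.0, 1.01 and 0.82 FPKM (log2 fold change 2.86, SE 0.24, adjusted p 2.5e-06), and the HGF receptor *Met* from 4.73, 2.93 and 2.94 FPKM to 21.2, 10.8 and 14.4 FPKM (log2 fold change 2.25, SE 0.29, adjusted p 5.9e-05). *Ret*, of GDNF signalling, was at 29.5, 24.8 and 27.3 FPKM and 27.5, 35.97 and 24.9 FPKM (adjusted p 0.26). In the Bcl2 family 4 of 15 rose (*Hrk*, *Bbc3*, *Bcl2* and *Bcl2l1*) and 1 fell (*Bmf*), with *Bbc3* lost without D5 replicate 1, D5 replicate 2, D6 replicate 1 or D6 replicate 2. These are 26.7% and 6.67%, beside 19.2% and 15.1% of all genes (median 0.12). The pro-death gene *Hrk* rose from 2.44, 1.25 and 1.5 FPKM to 28.1, 17.5 and 19.6 FPKM (log2 fold change 3.77, SE 0.33, adjusted p 3.1e-06). The survival genes *Bcl2* and *Bcl2l1* rose by less (1.27 and 0.64 on the log2 scale).

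Of genes for stress and metabolism, 8 of 24 cholesterol synthesis genes rose and 1 fell, and 5 of 30 glycolysis and hypoxia genes rose and 1 fell (*Slc2a1*). These are 33.3% and 16.7% risers, beside 19.2% of all genes, while 15.1% of all genes fell. The fall of *Slc2a1* was lost without D5 replicate 1, D5 replicate 3 or D6 replicate 1. In the integrated stress response 6 of 20 genes fell (3 without D5 replicate 3), among them the serine synthesis gene *Phgdh*, from 51.3, 37.3 and 57.7 FPKM to 7.59, 17.2 and 18.8 FPKM (log2 fold change -1.65, SE 0.30, adjusted p 9.1e-04). Of 20 p53 targets 6 fell and 2 rose (*Bbc3* and *Plk2*), with 3 fallers and 1 riser without D5 replicate 2 or D6 replicate 1. Of 17 immediate early genes 5 rose (*Jun*, *Arc*, *Nr4a2*, *Nr4a3* and *Dusp1*, 29.4%), and 3 without D5 replicate 3 or D6 replicate 3. The call of *Nr4a3* was lost with any of the 6 libraries left out (adjusted p 0.054 to 0.17). Another 2 members fell when D5 replicate 2 or D6 replicate 3 was left out, or with a replicate block. The AP-1 gene *Jun* rose from 24.9, 27.8 and 32.5 FPKM to 62.5, 69.3 and 63.96 FPKM (log2 fold change 1.32, SE 0.14, adjusted p 1.8e-05), while *Fos* was at 1.35, 1.2 and 1.24 FPKM and 1.46, 1.39 and 1.68 FPKM (adjusted p 0.28).

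Markers of other cell types were followed because the cultures were not sorted. Over all tested genes 19.2% rose and 15.1% fell, and the counts of these short lists are to be set beside those shares. Interneuron factors (17 tested) rose in 2 cases (*Gata2* and *Sim1*) and fell in 5 (*Lhx2*, *Bhlhe22*, *Dmrt3*, *Wt1* and *Prdm8*, of which 3 fell without D6 replicate 3). The call of *Sim1* was lost without D6 replicate 2 (adjusted p 0.056), which left 1 riser. That of *Dmrt3* was lost without D6 replicate 1 or D6 replicate 3, and that of *Prdm8* without D6 replicate 3. These factors had a summed level of 27.7, 31.1 and 31.7 FPKM at D5 and 20.7, 29.6 and 27.6 FPKM at D6. Of 10 tested astrocyte markers 4 fell (*Slc1a2*, *Slc1a3*, *Gja1* and *Gjb6*) and 1 rose (*Aldh1l1*, lost without D5 replicate 1, D5 replicate 2 or D6 replicate 1), and *Gfap* and *Aqp4* were below 0.1 FPKM in all 6 libraries. *Slc1a2*, a glutamate transporter, fell from 8.15, 8.21 and 8.94 FPKM to 2.69, 3.03 and 2.74 FPKM (log2 fold change -1.47, SE 0.17, adjusted p 3.1e-05). Of 10 tested hindbrain serotonergic and visceral markers 3 rose (*Fev*, *Gata2* and *Tbx20*) and 1 fell (*Tph2*), with a median log2 fold change of 0.45 and a summed level of 160.0, 96.7 and 127 FPKM at D5 and 211, 124 and 160.3 FPKM at D6. Of 9 tested oligodendrocyte lineage markers 2 rose (*Mog*, and *Cspg4*, which was lost with any library but D6 replicate 1 left out), and *Sox10*, which defines the lineage, was at or below 0.21 FPKM. Feeder fibroblast markers summed to 81.6, 104 and 120.3 FPKM at D5 and 47.7, 76.9 and 111 FPKM at D6, with 2 up (*Dcn* and *Twist1*) and 2 down (*Acta2* and *Tagln*) of 20, but the call of *Twist1* was lost without D5 replicate 1, D5 replicate 3, D6 replicate 2 or D6 replicate 3, and that of *Acta2* without D5 replicate 2, D5 replicate 3, D6 replicate 1 or D6 replicate 2, or with a replicate block (adjusted p 0.053). *Dcn*, a matrix proteoglycan, rose from 0.6, 1.07 and 0.98 FPKM to 4.85, 6.48 and 7.34 FPKM (log2 fold change 2.93, SE 0.29, adjusted p 9.4e-06). Of 18 pluripotency genes 1 rose (*Tbx3*) and 1 fell (*Lin28a*, lost without D6 replicate 2), and with a replicate block 5 and 3. *Tbx3* is also a member of the motor column and pool list, and *Lin28a* of the splicing factor list. *Nanog* was at 3.18, 16.3 and 14.2 FPKM and 1.99, 12.9 and 12.6 FPKM, and the replicate 1 libraries were the lowest on both days (adjusted p 0.87). Neural crest and sensory markers fell in 1 of 10 cases, and 1 of 8 endothelial and blood markers fell (*Kdr*, lost with any of the 6 libraries left out). The part of these cells in the changes above was not tested.

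**Figure D4:**
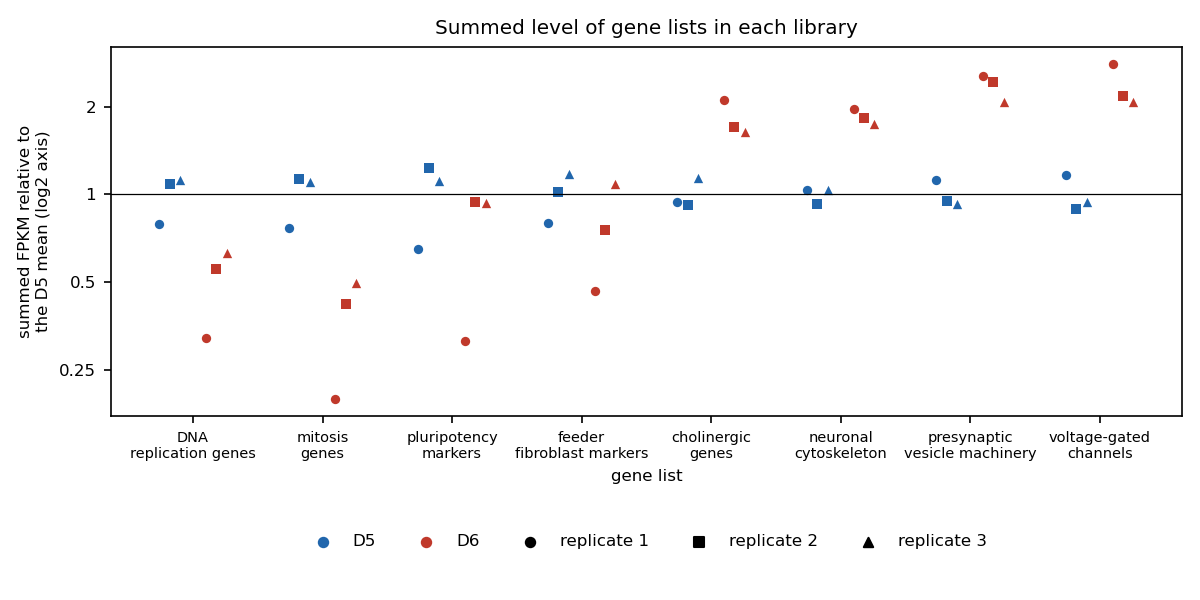
Summed FPKM of 8 gene lists in each library, divided by the mean of the D5 libraries (log2 axis), with D5 in blue, D6 in red and circles, squares and triangles for replicates 1, 2 and 3. D6 replicate 1 is the lowest library for mitosis genes (173 FPKM) and the highest for presynaptic genes (1779 FPKM), and it is also the lowest for pluripotency markers (61.5 FPKM).

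Among genes with a mean of at least 100 counts and no overlap, the largest rises were those of *Mgat4c*, *Mab21l2*, *Cntn4*, *Slc17a8*, *Grin2b*, *Corin*, *Lsamp*, *Sv2c*, *Htr1a* and *Kcnd2*. *Mgat4c* (chr10:101681487-102391469), a glycosyltransferase gene, was counted 1 time over the D5 libraries and 649 times over the D6 libraries (ratio 701, 95% counting interval 125 to 27743). *Mab21l2* (chr3:86545581-86548629) rose from 0.04, 0.14 and 0.08 FPKM to 32.6, 19.3 and 23.7 FPKM (log2 fold change 8.24, SE 0.52, adjusted p 3.4e-07). It lies within Lrba on the other strand, and reads of the pair cannot be told apart. The serotonin receptor gene *Htr1a* rose from 0.1, 0.19 and 0.11 FPKM to 5.57, 3.63 and 3.75 FPKM (log2 fold change 5.11, SE 0.40, adjusted p 3.9e-06), and *Corin*, a membrane protease gene, from 0.02, 0.07 and 0.09 FPKM to 2.56, 2.73 and 3.14 FPKM (log2 fold change 5.59, SE 0.56, adjusted p 9.0e-06). The serotonergic factor *Fev* had 0 counts over the D5 libraries and 81 over the D6 libraries, which makes it at least 9.73-fold higher when 3 counts are allowed to each D5 library, while *Tph2*, of serotonin synthesis, fell. Intervals and bounds of this kind cover counting error only.

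The largest falls were those of *Neurod4*, *Sp8*, *Olig2*, *Hoxb1*, *Cyp26b1*, *Cyp26a1*, *Nkx2-9*, *Neurog1*, *Neurog2* and *Hoxb5os*. *Sp8*, a zinc finger factor of ventral progenitors, fell from 5.18, 7.12 and 8.09 FPKM to 0.17, 0.41 and 0.43 FPKM (log2 fold change -4.21, SE 0.29, adjusted p 6.1e-07). *Nkx2-9* fell from 18.2, 11.3 and 12.3 FPKM to 0.68, 0.84 and 1.41 FPKM (log2 fold change -3.73, SE 0.34, adjusted p 4.5e-06), and *Neurog1* from 13.4, 12.2 and 17.3 FPKM to 0.65, 1.71 and 0.87 FPKM (log2 fold change -3.61, SE 0.36, adjusted p 9.6e-06). The largest losses in FPKM were those of *Eef1a1*, *Rps3a1*, *Crabp1*, *Rplp1* and *Rps6*. *Rps6*, a ribosomal protein gene, fell from 982, 709.5 and 659.8 FPKM to 223, 389.8 and 381 FPKM (log2 fold change -1.14, SE 0.22, adjusted p 0.0012). *Eef1a1*, the translation elongation factor, was at 4685, 4026 and 3743 FPKM and 2384, 2598 and 2660.5 FPKM (log2 fold change -0.60, SE 0.19, adjusted p 0.024), and its call ended without D5 replicate 1 or any D6 replicate (adjusted p 0.053 to 0.070). Genes at or below 3 counts in every library of 1 day that had the highest FPKM on the other day were short or predicted ones, such as *Snord42b* (14 counts over D6 and 4 over D5) and *Gm10351* (28 counts over D5 and 6 over D6).

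The share of genes that rose went up with the genomic span of the gene. Of 1667 tested protein-coding genes of at most 5 kb, 13.7% were higher at D6 and 18.7% lower, and of 198 genes of over 500 kb, 68.2% were higher and 4.04% lower. The median log2 fold change was -0.12 in the first class and 1.37 in the last. Without D6 replicate 1 the shares of higher genes were 9.67% and 63.1%. Among genes with a mean of at least 3 FPKM they were 15.8% of 1065 and 79.2% of 53. Exonic length went the same way, from 9.33% higher at up to 2 kb to 37.5% higher at over 10 kb. Several lists above hold long genes, such as *Lsamp* and *Cntnap2*, and the part of gene length in their changes was not tested.

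**Figure D5:**
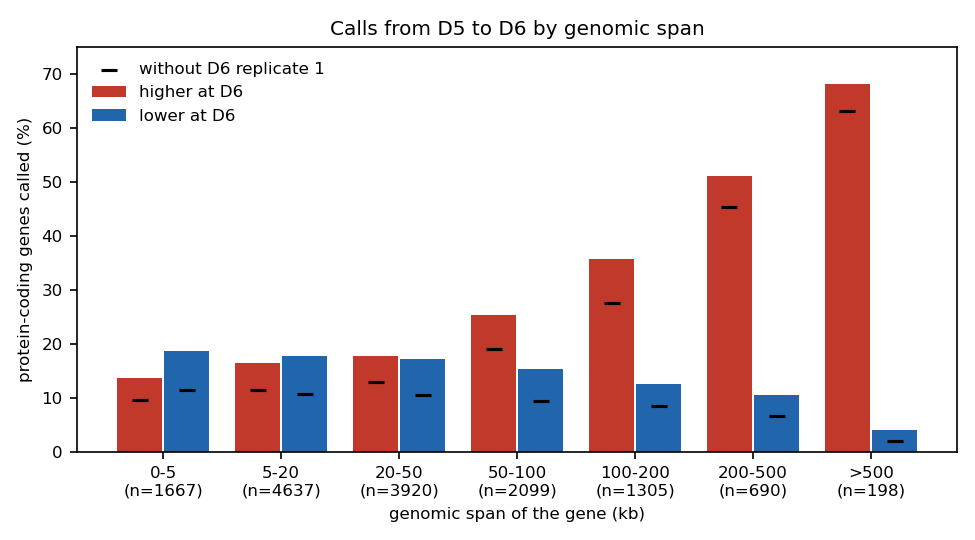
Percent of tested protein-coding genes called higher (red) or lower (blue) at D6, by genomic span in kb, with short black marks for the fit without D6 replicate 1 and the number of genes under each class. The share of higher genes goes from 13.7% at up to 5 kb to 68.2% above 500 kb.

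To see where this step differed from the preceding one, the change from D5 to D6 was compared with the change from D4H8 to D5 in the same fit. The steps share the D5 libraries, so a D5 library that deviates moves them in opposite directions. The earlier step began 8 hours after D4 and was shorter than the 1 day of the later step. Its medium was described with RA and SAG. Total changes were compared with no allowance for time, so stage, duration and medium cannot be told apart in this comparison. The change was more positive in the second step for 276 genes (1.58%) and more negative for 675 genes (3.85%). Without D5 replicate 1 the counts were 132 and 374, without D5 replicate 2 the first was 142, and without D4H8 replicate 2 it was 180. Of the 675, 386 had their highest mean at D5, 245 rose in both steps but by less in the second, and 44 fell in both and by more in the second. Of the 276, 173 had their lowest mean at D5, 95 rose in both steps and by more in the second, and 8 fell in both and by less in the second.

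Among genes with a peak at D5, *Lhx3* had mean levels of 6.31, 23.3 and 3.24 FPKM at D4H8, D5 and D6 (difference between steps -4.64 on the log2 scale, SE 0.55, adjusted p 2.9e-04). *Cntn2* had 21.8, 186 and 60.2 FPKM (-4.62, adjusted p 5.0e-05). *Cyp26b1* and *Pou3f1* followed the same course (-5.39 and -4.66). Many cytoskeleton genes rose in both steps but by less in the second: 17 of 34 had a smaller change and 0 a larger one by edgeR or DESeq2 (1 at an unadjusted p under 0.05). *Nefl* had 22.1, 372 and 949 FPKM (-2.61, adjusted p 1.2e-04). Of 54 presynaptic genes 14 had a smaller and 4 a larger change.

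For synapse organisers the counts were 9 larger and 6 smaller of 49. *Lsamp* had 0.05, 0.107 and 4.61 FPKM (4.69, adjusted p 0.0013), with most of the rise after D5. *Sv2c* had 0.0433, 0.383 and 13.5 FPKM (2.16, adjusted p 0.014). *Nkx6-2* had its lowest mean at D5, with 17.9, 5.28 and 33.8 FPKM (4.57, adjusted p 4.6e-04), as did *Calca*, with 2.78, 1.81 and 10.3 FPKM (3.25, adjusted p 0.0018). *Hrk* had 0.787, 1.73 and 21.7 FPKM (2.64, adjusted p 0.014). Of mitosis genes 0 of 46 differed between the steps by edgeR, by DESeq2 or at an unadjusted p under 0.05. Of DNA replication genes 0 of 44 differed by edgeR, 1 by DESeq2 and 2 at an unadjusted p under 0.05.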

How the data were processed

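PolyA RNA-seq libraries of the untreated D4, D4H8, D5 and D6 cultures (3 each, 12 in all) were used, and the GSKJ4 libraries were not. The authors trimmed reads with fastp, aligned them to mm10 with HISAT2, handled alignments with SAMtools and counted reads per gene with HTSeq. They deposited raw counts per gene and, in a separate table, FPKM values computed from these counts. Whether counting used strand is not given in the sources used here, so genes that overlap another gene on the other strand are uncertain. These include Lhx3, Nkx6-2, Nefl and Nefm, Hoxb2, Hoxb3, Hoxb5, Dll4, Ccnd1, Cdc20, Syn1, Pou3f1, Irx3, Ebf3, Prox1, Kdm6b, Actl6a and Mab21l2. Symbols, positions and gene spans came from a GRCm38 annotation and matched 55140 of 55400 genes, and promoters came from RefSeq (GRCm38.p6). The D5 and D6 libraries held 15431424 to 16647584 counts.

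Counts of the 12 libraries were fitted together with edgeR 4.0.16 (R 4.3.3, limma 3.58.1) by its quasi-likelihood test with TMM scaling, after filterByExpr with a minimum count of 10, which kept 17519 genes. The contrasts were D6 against D5, and that change minus the change from D4H8 to D5. A call is a Benjamini-Hochberg adjusted p under 0.05 over all genes tested. Fold changes and their SE are on the log2 scale of that fit, while levels are FPKM. Within a length-corrected unit, levels can be compared between genes. Libraries are biological replicates by label, with no word on separate thaws or runs, and p-values measure the spread between these libraries. Same-numbered D5 and D6 libraries had correlations of their deviations from the group means of 0.329, 0.164 and 0.245. Other-numbered pairs of replicates 2 and 3 gave 0.107 and 0.0724, and those with a replicate 1 gave -0.177 to -0.263. Replicate 1 thus stood apart on both days, and pairing of replicates 2 and 3 by number was less clear. The main fit had no replicate block, and a fit with the replicate number as a block was an alternative. Others were DESeq2 1.42.0, a scaling by upper quartile or by RLE, the filter dropped or set to 10 counts in each library, fewer groups in the fit, a fold threshold and leaving out each library. On simulated counts edgeR recovered 72% of 2-fold and 97% of 4-fold changes for D6 against D5 (16919 genes, 100 of each), with 14 false calls. Changes were set only in genes above a CPM limit at D5. The simulated libraries were independent, and none was shifted as D6 replicate 1 was. The recovery therefore does not carry over to genes of few counts or to a step as broad as the real one.

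The comparison and the gene lists were chosen with earlier results of these data known. Genes were named if they belong to a list (defining members and those with the largest changes first), if they were among the 10 largest rises or falls of called genes with a mean of at least 100 counts and no overlap, or the 5 largest gains or losses in FPKM of those, or the 5 highest on 1 day among genes with at most 3 counts per library on the other. A few genes are not reported here. Summed levels add the FPKM of all members of a list. Counts at or near 0 are given as ratios of summed counts with a 95% interval, or as a bound from 3 counts per library.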

Additional observations from a re-analysis of the deposited data

Results flagged for a closer look

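The step from D5 to D6 was set against the step from D4H8 to D5 by a test of the difference itself within 1 fit. It gave 276 genes whose change was more positive in the later step and 675 whose change was more negative. The largest class was the 386 genes with their highest mean at D5, among them *Lhx3* and *Cntn2*, and 173 genes had their lowest mean at D5, among them *Nkx6-2* and *Calca*. Both steps use the D5 libraries, and without D5 replicate 1 the counts were 132 and 374. The earlier step was also the shorter one, and no allowance was made for time. Groups of 3 were not tested for single libraries that stand apart.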

How the results depend on the processing

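The count of genes higher at D6 was 2526 to 3303 and that of lower genes 1625 to 2540 when a D5 or D6 library was left out (lowest without D6 replicate 1). Asking for an absolute log2 fold change of at least 1 left 1719 and 1081 genes. For the difference between steps the counts were 132 to 235 larger and 374 to 722 smaller with 1 library left out (180 larger without D4H8 replicate 2, 142 without D5 replicate 2, and the lowest of both counts without D5 replicate 1), 564 larger with DESeq2, and 465 and 1074 without a filter. The causes were not tested. With 1 library left out, the group with 2 libraries was taken to vary like the others.

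Same-numbered D5 and D6 libraries deviated together, and with the replicate number as a block 3645 genes rose and 3008 fell in the later step, while 370 had a larger and 848 a smaller change than in the earlier step. Among the named genes the block gave a call to *Sox2*, *Hoxb5*, *Cbln1* and *Kdm6b* and ended that of *Acta2*, and it changed no other call of the 224 named genes tested.

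Upper-quartile scaling moved the median log2 fold change of all genes from -0.02 to -0.10 and the share of calls that were higher from 56.0% to 47.2%. Directions turned only for genes without a call. *Cdkn1b* gave -0.013 in the D5 and D6 libraries alone and -0.068 with upper-quartile scaling, *Kdm6a* -0.051 with upper-quartile scaling, and *Hoxa5* 0.0023 with either DESeq2 or RLE scaling. With 1 library left out the log2 fold changes were -0.062 to 0.095 for *Cdkn1b*, -0.16 to 0.15 for *Hoxa5*, -0.042 to 0.11 for *Kdm6a* and -0.62 to 0.28 for *Nanog*. Of 2846 values of named genes under these alternatives, 118 lost and 29 gained a call. Genes of a few counts per library have wide intervals, and this depth limits what can be said of them.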

Other observations

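The groups below were formed by gene symbol after the values had been seen, so their counts are descriptions. Of 84 cytosolic ribosomal protein genes 61 fell (median log2 fold change -0.84), and 39 fell without D6 replicate 1. Their summed level was 26959, 27747 and 23739 FPKM in D5 replicates 1 to 3 and 10818, 15724 and 14153 FPKM in D6 replicates 1 to 3. Many have processed pseudogenes that can share reads. Of 766 tested processed pseudogenes of any origin 91 fell and 12 rose (44 and 6 without D6 replicate 1). These are 11.9% and 1.57%, beside 15.1% and 19.2% of all genes, so the share called lower was not above that of all genes. However, 663 of them gave no call, and their median log2 fold change was -0.46, against -0.02 for all genes. Their summed level was 9188, 9616 and 8460 FPKM in D5 replicates 1 to 3 and 4701, 6405 and 6244 FPKM in D6 replicates 1 to 3. Of 38 proteasome subunits 18 fell, but 10 without D5 replicate 1 or D6 replicate 3, 4 without D6 replicate 1 and 28 with upper-quartile scaling. Of 6 subunits of the CCT chaperonin, which folds actin and tubulin, 6 fell, but 2 without D5 replicate 1 and 1 without D6 replicate 1. Of 20 hnRNP genes 11 fell, and 9 to 11 with 1 library left out. Of 72 nuclear genes of the respiratory chain 3 fell (median -0.24). This count was 12 with a replicate block, 11 with upper-quartile scaling or without D5 replicate 3, and 1 without D5 replicate 1, D6 replicate 1 or D6 replicate 3.

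The intracellular fibroblast growth factor homologues *Fgf11*, *Fgf12*, *Fgf13* and *Fgf14*, which bind sodium channels, passed the test as higher at D6, with a summed level of 13.3, 15.2 and 12.9 FPKM at D5 and 101, 59.8 and 71.1 FPKM at D6. The call of *Fgf14* was lost with any library but D6 replicate 3 left out (adjusted p 0.074 to 0.12) and with upper-quartile scaling. Of the clustered protocadherins, 7 of 13 Pcdha, 11 of 21 Pcdhb and 12 of 20 Pcdhg genes rose, and of the last 8 rose without D5 replicate 3 and 7 without D6 replicate 1. In the main fit these are 53.8%, 52.4% and 60%, beside 19.2% of all genes. The Pcdha genes share their last exons, as do the Pcdhg genes, so their counts are uncertain. Of 21 dynein and dynactin genes, of retrograde axonal transport, 10 rose and 1 fell. These are 47.6% and 4.76%, beside 19.2% and 15.1% of all genes. The risers numbered 4 without D5 replicate 3 or with upper-quartile scaling, 5 without D6 replicate 1 or D6 replicate 2, and 6 without D5 replicate 2 or D6 replicate 3. Of 11 Wnt ligands 6 fell (54.5%, beside 15.1% of all genes) and 1 rose, and the riser was lost with any library but D6 replicate 1 left out, or with upper-quartile scaling.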
